A study of Mus musculus with 8 samples.

Results

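The Dlx and Msx genes encode homeodomain transcription factors, and 8 of them were followed here in cells sorted from growing mouse molars: Dlx1 to Dlx6, Msx1 and Msx2. They were chosen by name from a table of 56748 genes, with earlier results of these data known. All 8 were present and passed the filter on low counts. The RNA came from tdTomato+ cells of the lower molars at postnatal day 10, collected after a tamoxifen pulse at postnatal day 3, and was sequenced as bulk libraries from low-input cDNA. Of the 8 libraries, 4 are labelled cHet, with the genotype Ctnnb1(+/-), and 4 are labelled cKO, with the genotype Ctnnb1(-/-). Ctnnb1 encodes beta-catenin. Both groups received tamoxifen and both carry a deleted copy of the gene, so no group with intact Ctnnb1 enters the comparison. By their labels the sorted cells are CXCL12+ and belong to the apical papilla, from which root pulp and dentin-forming cells arise, while other labels name dental pulp as the tissue and mention dissociated follicle cells. The driver of the Cre recombinase, the sex of the mice and how many animals stand behind a library are not stated in the labels. The p-values therefore rest on the spread among the libraries, and this may be technical. Columns of the table could be tied to a group but not to a single labelled sample, so each library is called by its column name (cHet8, cHet11, cHet12 and cHet14, and cKO7, cKO9, cKO14 and cKO15).

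Dlx genes lie in the genome as convergently transcribed pairs, Dlx1 with Dlx2, Dlx3 with Dlx4 and Dlx5 with Dlx6, and neighbours in a pair share enhancers. In the branchial arches their nested expression sets the identity of upper and lower jaw, and in teeth Dlx3 is known from a human disorder of hair, teeth and bone. Msx1 and Msx2 act in the mesenchyme and epithelium of the tooth germ downstream of bone morphogenetic proteins (BMPs), and loss of Msx1 arrests mouse tooth development at the bud stage.

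The stretch of the homeobox that encodes the DNA recognition helix shows how closely the genes are related, and is printed for 7 of the members for that reason. Each sequence is 42 bases long, runs 5′ to 3′ on the coding strand and starts 2 codons before the tryptophan codon of the motif Trp-Phe-Gln-Asn. Capitals mark the 22 bases that are identical in these 7 genes.
Dlx1: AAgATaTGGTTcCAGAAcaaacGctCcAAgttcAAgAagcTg
Dlx2: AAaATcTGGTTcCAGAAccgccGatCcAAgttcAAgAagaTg
Dlx3: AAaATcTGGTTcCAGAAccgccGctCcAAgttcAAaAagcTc
Dlx4: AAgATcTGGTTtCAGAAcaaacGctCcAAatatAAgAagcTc
Dlx5: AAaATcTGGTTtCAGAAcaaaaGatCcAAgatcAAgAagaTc
Dlx6: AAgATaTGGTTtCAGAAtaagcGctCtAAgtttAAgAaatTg
Msx2: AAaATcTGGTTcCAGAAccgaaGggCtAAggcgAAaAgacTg

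These bases were read from the GRCm38 genome with the GENCODE M21 annotation, where they lie in the last coding exon, exon 3 of 3 for every Dlx gene and exon 2 of 2 for Msx2. On chromosome 2 they are at chr2:71532267-71532308 on the plus strand for Dlx1 and chr2:71544880-71544921 on the minus strand for Dlx2. On chromosome 11 they are at chr11:95123412-95123453 on the plus strand for Dlx3 and chr11:95141425-95141466 on the minus strand for Dlx4. On chromosome 6 they are at chr6:6878444-6878485 on the minus strand for Dlx5 and chr6:6867044-6867085 on the plus strand for Dlx6. Msx2 has no paired partner, and its stretch is at chr13:53468373-53468414 on the minus strand. Over the 21 pairs of these genes, between 26 and 38 of the 42 bases were identical, with the most for Dlx2 and Dlx3 and the fewest for Msx2 with Dlx4 and with Dlx6. Across whole transcripts the longest identical run between any 2 Dlx genes was 23 bases. The longest over these pairs was 44 bases, for Dlx6 with Msx2, which share 26 bases of the printed stretch. Where that run lies and what it consists of were not examined. The treatment of reads that fit more than 1 gene is not stated in the labels.

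Transcripts of every member were more abundant on average in the cKO libraries, and 2 passed the test across all genes. Levels are normalised counts (CPM, with library sizes scaled by TMM factors) unless a value per length is named. Dlx3 and Dlx4, the pair on chromosome 11, rose 4.58-fold and 5.69-fold. In 6 of the 8 genes every cKO library lay above every cHet library. Of the 21508 genes tested, 1.08% were called higher in cKO at a Benjamini-Hochberg adjusted p under 0.05 by edgeR's quasi-likelihood test, and 0.0558% lower. Complete separation of the groups with cKO above occurred in 6.46% of the tested genes. An unadjusted p under 0.05 with a higher value in cKO was found for all 8 members and for 10.8% of the tested genes. The median log2 fold change was 1.84 over the 8 members and −0.03 over all tested genes. In bulk RNA, fewer cells of a type and less RNA per cell cannot be told apart, and this holds for every value given here.

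**Figure D1:**
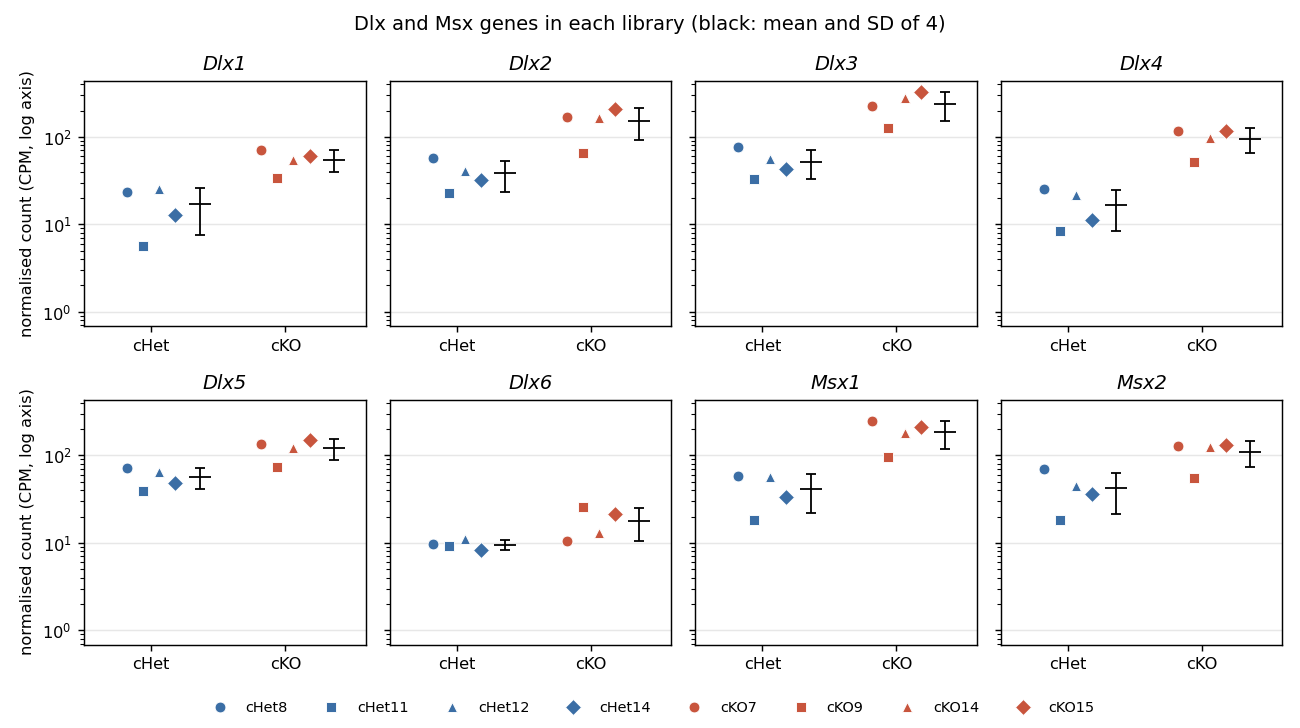
Normalised counts (CPM, log axis) of each Dlx and Msx gene in each library, with cHet and cKO side by side; coloured symbols are libraries, and black bars are the group mean and SD (n = 4). All cKO points lie above all cHet points except for Dlx6 and Msx2.

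Total counts lay between 44444033 and 50051392 per library, so depth was similar in all 8. Ctnnb1 itself averaged 257 ± 40.2 CPM in cHet libraries and 277 ± 39.2 CPM in cKO libraries (SD, n = 4; edgeR adjusted p = 0.785). That count covers the whole gene, and since the deleted exons are not named it does not check the labels. Cxcl12, which names the sorted cells, was present in every library and rose from 149 ± 91.5 to 826 ± 238 CPM. Transcripts of other tissues were present too. The 8 markers of olfactory sensory neurons summed to between 6160 and 11794 CPM in cHet and between 5587 and 6941 CPM in cKO. Ameloblast markers, such as the enamel matrix genes Amelx and Ambn, summed to between 2309 and 11432 CPM in cHet and between 4699 and 8535 CPM in cKO. No gene of the 13 marker lists was at 0 in all 8 libraries.

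Dlx3 and Dlx4 gave the clearest difference. Dlx3 is expressed in dental mesenchyme, odontoblasts and ameloblasts, and drives the dentin gene Dspp. Its normalised counts were 77.2, 32.8, 55.9 and 42.7 in cHet8, cHet11, cHet12 and cHet14. In cKO7, cKO9, cKO14 and cKO15 they were 226, 126, 278 and 325. The lowest cKO library, cKO9, thus lay above the highest cHet library, cHet8. The means were 52.1 ± 19.2 and 239 ± 85.3 CPM (SD, n = 4 each), a log2 fold change of 2.19 (SE 0.35, edgeR adjusted p = 0.0377).

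Dlx4 is transcribed toward Dlx3 from the other end of the pair. It stood at 25.6, 8.48, 21.8 and 11.1 CPM in the cHet libraries, in the order given for Dlx3. In the cKO libraries it stood at 116, 52.2, 96.8 and 117 CPM. The groups did not overlap, with cHet11 the lowest of all 8 and cKO9 the lowest of its group. The mean rose from 16.8 ± 8.27 to 95.5 ± 30.3 CPM (SD, n = 4 each), with a log2 fold change of 2.51 (SE 0.41, edgeR adjusted p = 0.0399). Within a library Dlx3 had between 1.94 and 3.86 times the CPM of Dlx4. Both calls were lost when any of 6 libraries was left out, with adjusted p up to 0.147 and no member called. In those 6 fits between 0% and 0.0357% of all tested genes were called higher (0.0181% without cHet11, 0.0357% without cKO7 or cKO15). Both calls held without cHet8, where 0.698% of tested genes were called higher, and without cKO9, where 3.67% were. General mesenchyme markers were also higher in cKO, as given with the markers.

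Dlx1 and Dlx2, the pair on chromosome 2, are active in the mesenchyme of the first branchial arch, and loss of both removes the upper molars in mice. Dlx2 counts were 57.0, 23.0, 41.1 and 31.8 CPM in the cHet libraries and 169, 66.3, 165 and 208 CPM in the cKO libraries. The groups did not overlap, and only cKO9 came near the cHet range. The means of 38.2 ± 14.6 and 152 ± 60.4 CPM differed by a log2 value of 1.99 (SE 0.39), which missed the threshold (edgeR adjusted p = 0.0572).

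Dlx1, transcribed toward Dlx2, stood at 23.5, 5.65, 25.6 and 12.8 CPM in the cHet libraries. In the cKO libraries it stood at 70.5, 34.0, 53.8 and 60.5 CPM. Its groups did not overlap either, and cHet11 was again the lowest library. The means were 16.9 ± 9.37 and 54.7 ± 15.4 CPM, a log2 difference of 1.69 (SE 0.45, edgeR adjusted p = 0.119).

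Dlx5 and Dlx6, on chromosome 6, specify the lower jaw, and Dlx5 is also known as an early factor of osteoblast differentiation. The members of this pair did not behave alike across libraries. Dlx5 stood at 72.6, 39.2, 64.6 and 48.3 CPM in cHet and at 136, 74.0, 123 and 151 CPM in cKO. Its groups were close at the edge, with 74.0 CPM in cKO9 and 72.6 CPM in cHet8. The means of 56.2 ± 15.2 and 121 ± 33.3 CPM gave a log2 difference of 1.11 (SE 0.26, edgeR adjusted p = 0.0897).

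Dlx6 set itself apart by the library that was highest. It stood at 9.62, 9.10, 11.2 and 8.31 CPM in cHet and at 10.5, 25.8, 12.8 and 21.5 CPM in cKO. In this gene alone of the 8, cKO9 was the highest library, whereas for the other 7 cKO9 was the lowest of its group. The groups overlapped, since cHet12 lay above cKO7, and the log2 difference of 0.89 did not pass (SE 0.31, edgeR adjusted p = 0.202). The ratio of Dlx5 to Dlx6 in CPM ranged from 4.31 to 7.56 in cHet and from 2.87 in cKO9 to 12.9 in cKO7.

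Msx1 and Msx2 encode transcriptional repressors that respond to BMPs. Msx1 counts were 58.9, 18.2, 56.2 and 33.2 CPM in cHet and 251, 95.5, 180 and 209 CPM in cKO. The groups did not overlap. The means were 41.6 ± 19.4 and 184 ± 65.6 CPM, a log2 difference of 2.14 (SE 0.42, edgeR adjusted p = 0.0573).

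Msx2, which is known for its part in skull sutures and in enamel formation, stood at 69.4, 18.3, 45.3 and 36.5 CPM in cHet. In cKO it stood at 128, 55.5, 126 and 133 CPM. Here cKO9 lay below cHet8, so the groups overlapped, while the other cKO libraries were within 126 to 133 CPM. The means were 42.4 ± 21.2 and 111 ± 36.8 CPM, with a log2 difference of 1.38 (SE 0.42, edgeR adjusted p = 0.156). In the fit scaled to mesenchyme markers its log2 value was 0.27. The ratio of Msx1 to Msx2 in CPM was between 0.849 and 1.24 in the cHet libraries and between 1.43 and 1.96 in the cKO libraries. Msx1 thus made up more of the Msx transcripts in every cKO library than in any cHet library. No test was made of this ratio.

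The sizes of the 8 differences varied. The approximate 95% intervals of the log2 fold change ran from 1.70 to 3.32 for Dlx4, from 0.59 to 1.62 for Dlx5 and from 0.29 to 1.49 for Dlx6. These intervals use 1.96 standard errors, which is too few for 4 libraries per group. The gap from 1.70 down to 1.62 or 1.49 therefore does not set Dlx4 apart from the chromosome 6 pair. The difference between members was not tested itself.

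Transcripts from the opposite strand of these loci were measured as genes of their own. The library kit does not mark strand, so where exons overlap, reads of a gene and its opposite-strand partner cannot be told apart. In GENCODE M21, Dlx4 and Dlx4os share 79 exon bases, Dlx1 and Dlx1as 335, and Dlx6 and Dlx6os2 104, while Dlx6os1 shares none with Dlx5 or Dlx6. Of 7 such transcripts looked for, 4 were matched by symbol. None of the 4 was called by edgeR, where 1.08% of all tested genes were called higher. All 4 had an unadjusted p under 0.05 with higher values in cKO (10.8% of all tested genes). DESeq2 and voom each called 3 higher (7.95% and 5.96%). Dlx4os averaged 17.5 ± 9.33 CPM in cHet and 92.5 ± 35.4 in cKO, a log2 difference of 2.40 (SE 0.48, edgeR adjusted p = 0.0600). The ratio of Dlx4 to Dlx4os in CPM, not corrected for length, lay between 0.742 and 1.38 in the 8 libraries.

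Dlx6os1, also known as Evf2, is a long noncoding RNA known to regulate Dlx5 and Dlx6 in the brain. It stood at 141, 67.0, 83.2 and 59.4 CPM in cHet and 233, 148, 187 and 262 CPM in cKO. The groups did not overlap, and the log2 difference was 1.24 (SE 0.30, edgeR adjusted p = 0.0908). Per kilobase it averaged 16.8 and 39.8 CPM, beside 24.8 and 53.4 for Dlx5. In log2 CPM over the 8 libraries it followed Dlx5 (Pearson r = 0.953) more closely than Dlx6 (r = 0.574). These correlations share the libraries and the difference between groups. Dlx1as stood at 2.70 and 5.08 CPM with groups that did not overlap (adjusted p = 0.149), and Dlx6os2 stood below 1 CPM in every library.

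Levels of different genes can be compared only per length of transcript, here CPM per kilobase of the GENCODE M21 exons. On that scale the summed level of the 8 genes averaged 96.9 ± 35.7 in cHet libraries and 338 ± 106 in cKO libraries (SD, n = 4). Dlx5 was the highest of the 8 in every cHet library and Dlx3 the second. In every cKO library Dlx3 was the highest, at 91.6 ± 32.7 CPM per kilobase, and Dlx5 ranked between the second and the fourth place. Msx1, Dlx5 and Dlx2 followed in cKO at 59.3 ± 21.2, 53.4 ± 14.7 and 53.2 ± 21.1 CPM per kilobase, which do not differ beyond their spread. Msx2 (33.7 ± 11.2) and Dlx4 (29.2 ± 9.27) came next with overlapping ranges, though Msx2 stood above Dlx4 within each cKO library. Dlx1 (10.1 ± 2.85) and Dlx6 (7.43 ± 3.02) were the lowest. In cHet, Dlx5 (24.8 ± 6.72) and Dlx3 (20.0 ± 7.36) led, and Msx1, Dlx2 and Msx2 lay together between 12.9 and 13.4. Dlx4 (5.13 ± 2.53), Dlx6 (4.02 ± 0.504) and Dlx1 (3.13 ± 1.74) followed with overlapping ranges. Within each cHet library Dlx4 stood above Dlx1, while the place of Dlx6 differed between libraries.

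As shares of the summed level, Dlx5 made up between 23.2% and 30.5% in the cHet libraries and between 15.1% and 17.7% in the cKO libraries. Dlx4 went the other way, from between 4.25% and 5.94% to between 8.22% and 9.38%. Dlx3 made up between 19.1% and 22.1% in cHet and between 22.9% and 29.6% in cKO. For these 3 genes no cHet library overlapped with a cKO library. The shares of Dlx1, Dlx2, Dlx6, Msx1 and Msx2 overlapped between the groups. A share depends on the scaling of a library only through the ratios of the genes, so it does not move with the choice of normalisation factor.

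**Figure D2:**
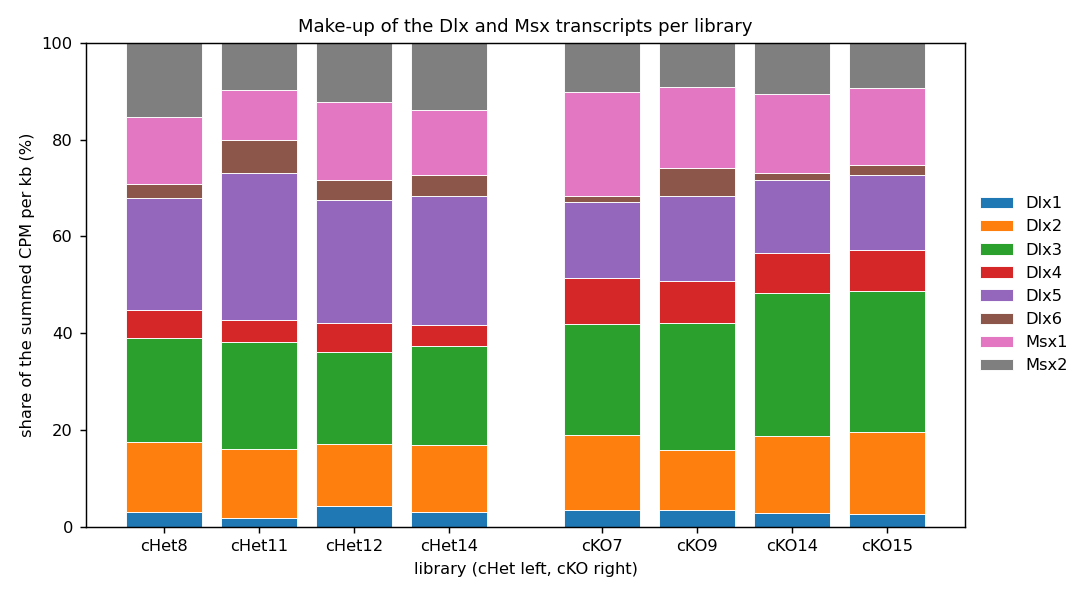
Share (percent) of the summed CPM per kilobase of the 8 Dlx and Msx genes that each gene takes in each library, as stacked bars reaching 100%. Dlx5 takes the largest share in each cHet library and Dlx3 in each cKO library.

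The members moved together from library to library, apart from Dlx6. Over the 8 libraries the Pearson correlation of log2 CPM ranged from 0.408 to 0.993 over the 28 pairs, with a median of 0.964. The 21 pairs without Dlx6 were all at 0.928 or above. After each library's group mean was subtracted, these 21 pairs still stood at 0.788 or above, while Dlx6 had values between −0.348 and −0.142 with the other 7. With the mean log2 CPM of the general mesenchyme markers, the 7 members other than Dlx6 had r between 0.918 (Dlx4) and 0.977 (Msx2). After the group means were subtracted, these values lay between 0.890 (Dlx2) and 0.952 (Msx2). For Dlx6 they were 0.509 and −0.028. The points share the libraries, the depth and the makeup of the sorted cells, so the values are descriptions. Of all libraries, cHet11 was lowest for 7 of the 8 genes and cHet14 for Dlx6.

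Genes with the most similar profile were taken from the 12472 tested genes that averaged 5 CPM or more. For the mean of the 8 standardised members the nearest was Colec12, a scavenger receptor of the collectin family (r = 0.997 over 8 libraries). Next were Dpyd, Dlk1, Tnc and Osr2, which respectively encode a pyrimidine-degrading enzyme, a delta-like membrane protein of progenitor cells, the matrix protein tenascin C and a zinc finger factor of tooth mesenchyme. For Dlx4 the nearest were Dlk1, Smad6 and Cxcl12 itself (all r = 0.997 or 0.996). For Dlx3 they were Ltbp3, Scara5 and Nudt4, for Dlx1 Pheta2, Arhgef25 and Serpinh1, and for Dlx2 Socs3, Slc39a7 and Sdc1. Dlx5 was also nearest to Socs3, a feedback inhibitor of cytokine signalling, ahead of Serping1 and Efna1. Msx1 was nearest to Nbl1, which encodes a secreted BMP antagonist, then Foxd2 and Mab21l2, and Msx2 to Sat2, Cd248 and Chst14. Dlx6 had other neighbours, Sall2, Xpo7 and Adarb1, with r between 0.973 and 0.980. With 8 libraries in 2 groups, any genes with a large difference in the same direction reach a high correlation. After each library's group mean was subtracted, r for the named genes lay between 0.948 (Xpo7 with Dlx6) and 0.995 (Nbl1 with Msx1). The genes were picked for a high r over the same libraries, so these values are descriptions.

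Markers of other cells were set beside these values. The 13 general mesenchyme markers, whose sum is mostly the collagen transcripts Col1a1, Col1a2 and Col3a1, summed to between 3852 and 12386 CPM in cHet and between 13894 and 27498 CPM in cKO. Of these 13, edgeR called 1 higher (Prrx1) and none lower, beside 1.08% and 0.0558% of all tested genes. At an unadjusted p under 0.05, 9 were higher and 1 lower (10.8% and 6.33% of all tested genes). In 5 every cKO library lay above every cHet library (6.46%). DESeq2 called 7 higher (7.95%) and 1 lower. A log2 difference above 0 was found in 11. The mean log2 CPM of the 13 was 1.08 higher in cKO (two-sided exact permutation p = 0.0571, where the smallest possible is 0.0286). The score of the 8 olfactory neuron markers was 0.41 lower in cKO on the log2 scale (exact p = 0.0857), and that of the 6 ameloblast markers 0.18 higher (exact p = 0.657). Pdgfra, a receptor of mesenchymal cells, had a log2 difference of 2.04, Vim of 0.24, and the matrix genes Lum and Dcn of −0.66 and −1.04. The 5 macrophage markers had a median log2 difference of −1.17, all 5 below 0 (none called by edgeR, exact p of the score 0.114). Of these, 4 had an unadjusted p under 0.05, all lower (6.33% of all tested genes), and DESeq2 called 2 lower (871 of the 21508 tested genes). The 4 tested neutrophil markers had a median of −4.89 (none called by edgeR, exact p of the score 0.200). All 4 neutrophil markers had an unadjusted p under 0.05 with lower values in cKO, and DESeq2 called 2 lower. Their sum was 14717 CPM in cHet12 and between 8.49 and 1055 CPM in the other 7 libraries, and without cHet12 the median was −2.0. Odontoblast markers summed to between 106 and 334 CPM in cHet and between 93.6 and 230 CPM in cKO. The summed CPM of the 8 Dlx and Msx genes was lowest in cHet11 (155 CPM, with 3852 CPM of mesenchyme markers) and highest in cKO15 (1224 CPM, with 27498 CPM). Between these the order differed, since cHet8 had 394 CPM with 11840 CPM of mesenchyme markers and cHet12 had 322 CPM with 12386 CPM. The part of these marker differences in the Dlx and Msx values was not tested.

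**Figure D3:**
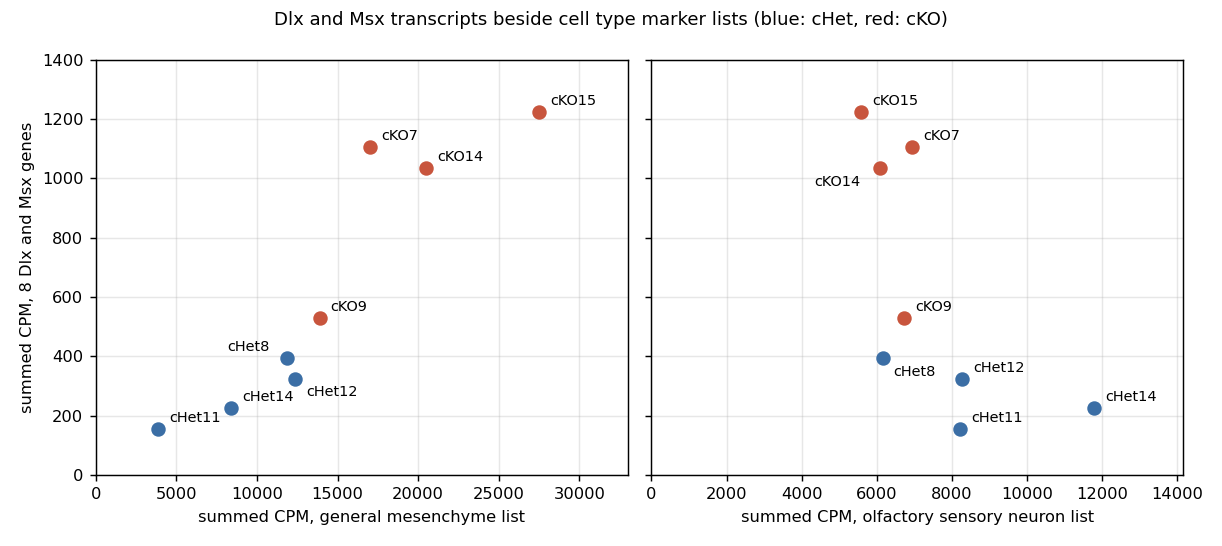
Summed CPM of the 8 Dlx and Msx genes in each library against the summed CPM of the general mesenchyme markers and of the olfactory sensory neuron markers. The cKO libraries have the higher mesenchyme sums (13894 to 27498 CPM) and the higher Dlx and Msx sums (529 to 1224 CPM).

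Set against the mesenchyme sum, the members divided. Per 1000 CPM of mesenchyme markers, Dlx4 averaged 1.86 ± 0.412 CPM in cHet libraries and 4.89 ± 1.35 in cKO libraries, with no overlap. Dlx3 stood at 6.15 ± 1.78 and 11.9 ± 2.05 CPM, Msx1 at 4.55 ± 0.437 and 9.49 ± 3.58 CPM, and Dlx1 at 1.76 ± 0.309 and 2.85 ± 0.875 CPM, each again with every cKO library above every cHet library. For Dlx2 the groups overlapped, at 4.47 ± 1.18 and 7.57 ± 2.12 CPM. Dlx5 (6.82 ± 2.27 and 6.20 ± 1.23 CPM), Dlx6 (1.27 ± 0.735 and 0.970 ± 0.595 CPM) and Msx2 (4.65 ± 0.923 and 5.62 ± 1.54 CPM) overlapped widely. How many of all tested genes separate on this scale was not counted, so the separation of members has no background share beside it. In the edgeR fit scaled to these markers, Dlx5 and Dlx6 turned to log2 values of −0.14 and −0.38, and no member was called (0.0093% of tested genes were called higher). That scaling moved the median of all tested genes to −1.35. Relative to that median the members stood from 0.96 for Dlx6 to 2.74 for Dlx4, beside 0.91 and 2.54 with TMM factors. Scaling moves all genes by nearly the same amount, so values against the median cannot show what it does to a member. The same holds for the lists given below.

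With a marker score as a covariate edgeR called no member. With the mesenchyme score, where 0.0511% of tested genes were called higher, Dlx3 had a log2 value of 1.24 (adjusted p = 0.194) and Dlx4 of 1.49 (adjusted p = 0.224). With the olfactory score, where 0% were called, the values were 1.59 and 1.96 (adjusted p = 0.477 for both). With the ameloblast score, where 0.0697% were called, they were 2.10 and 2.47 (adjusted p = 0.0695 and 0.0793). An unadjusted p under 0.05 with a higher value in cKO was kept by 4 members with the mesenchyme score, 5 with the olfactory score and 8 with the ameloblast score. Over all tested genes the shares were 3.6%, 4.51% and 10.1%. Over the 21 fits beside the one reported, Dlx3 and Dlx4 each passed in 11, Dlx2 and Msx1 in 5, Dlx5 in 4, Dlx1 and Msx2 in 3 and Dlx6 in 1. DESeq2 called all 8 members higher, among 7.95% of tested genes, and limma voom with library weights called 7, among 5.96%. With a filter of at least 1 CPM in 4 libraries edgeR called 4 members higher, among 1.7%. Without cKO9 edgeR called 5 members, and without both cHet11 and cKO9 it called 7, among 2.84%, all but Dlx6.

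**Figure D4:**
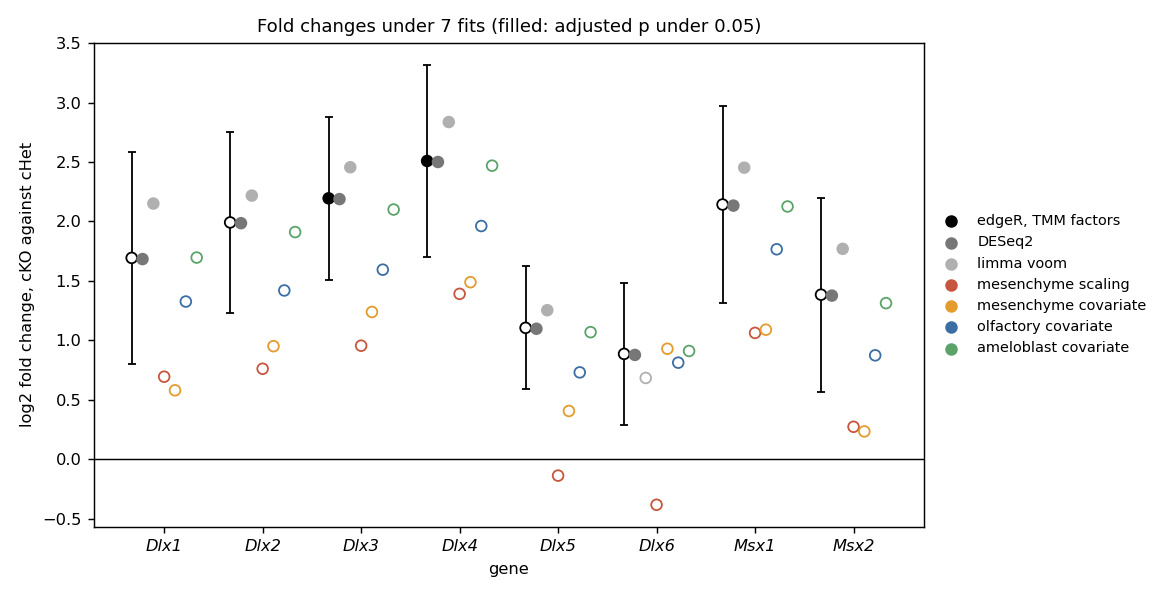
Log2 fold change (cKO against cHet) of each Dlx and Msx gene in 7 fits, with filled symbols where the adjusted p is under 0.05 and approximate 95% intervals for the edgeR fit with TMM factors. Dlx5 and Dlx6 fall below 0 with the mesenchyme scaling.

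Genes around the loci were examined next. For each locus the nearest 2 protein-coding genes on either side were taken from the GRCm38.p6 RefSeq order, 20 in all, of which 18 were tested. None was called by edgeR, 5 having an unadjusted p under 0.05 (2 higher and 3 lower in cKO, where all tested genes gave 10.8% and 6.33%). DESeq2 called 2 higher and 2 lower, and voom 1 and 1, where 7.95% and 5.96% of all tested genes were called higher. Without cKO9 edgeR called 2 higher, Stk32b and Pdk2 (3.67% of all tested genes). The median log2 difference of the 18 was 0.06. It ranged from −1.65 for Tac1, which encodes substance P and lies on the Dlx5 side of the pair, to 2.30 for Stk32b, a kinase gene near Msx1 with 1.02 and 5.02 CPM. Complete separation with cKO above was seen for 1 neighbour (6.46% of all tested genes). This was Pdk2, on the Dlx3 side of its pair, at 45.9 and 65.8 CPM (log2 0.52, SE 0.11, edgeR adjusted p = 0.0716). Tac1 separated completely with cKO below, at 26.8 and 8.53 CPM (edgeR adjusted p = 0.108). The share of all tested genes was not counted for that direction.

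**Figure D5:**
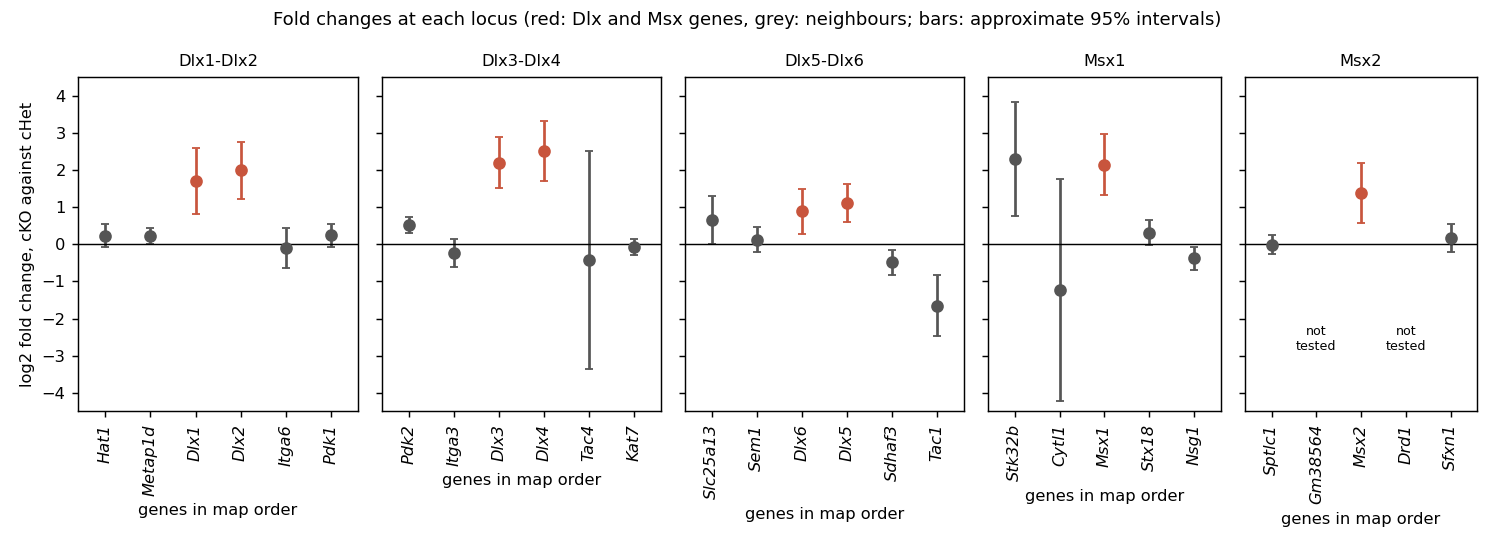
Log2 fold change (cKO against cHet) of each Dlx and Msx gene and of its nearest tested neighbours in map order, by locus, with approximate 95% intervals. The median of the 18 tested neighbours is 0.06, against 1.84 for the 8 members.

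Promoter sequence was at hand for 4 of the 8 members from the RefSeq table of GRCm38.p6. The windows of Dlx1 and Msx2 lie inside a GENCODE transcript of the gene and are not shown. Those of Dlx2 and Msx1, on different chromosomes, lie outside and are printed for that reason alone, with a GC content of 66.4% and 68.0%. Each is the 250 bases before the start, 5′ to 3′ on the gene's strand, which is minus for both, at chr2:71546755-71547004 and chr5:37824586-37824835. Capitals mark matches, on either strand, to CACGTG (an E-box) and CCAAT (the CCAAT box).
Dlx2: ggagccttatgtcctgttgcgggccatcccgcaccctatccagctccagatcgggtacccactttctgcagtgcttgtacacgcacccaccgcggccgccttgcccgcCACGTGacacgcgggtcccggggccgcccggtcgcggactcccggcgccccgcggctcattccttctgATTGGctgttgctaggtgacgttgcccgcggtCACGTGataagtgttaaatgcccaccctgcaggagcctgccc
Msx1: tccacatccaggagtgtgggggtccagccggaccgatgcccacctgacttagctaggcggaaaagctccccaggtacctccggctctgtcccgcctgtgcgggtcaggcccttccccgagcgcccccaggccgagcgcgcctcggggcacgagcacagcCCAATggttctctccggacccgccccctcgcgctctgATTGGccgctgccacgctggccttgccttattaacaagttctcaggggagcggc

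The Dlx2 window holds 2 matches to CACGTG and 1 to CCAAT, and the Msx1 window holds 2 to CCAAT. Of 32536 windows of that length in the table, 6.04% hold CACGTG and 33.8% hold CCAAT. Neither window holds TAATT, the core bound by Dlx and Msx homeodomains (25% of windows). Neither holds CTTTGAT or CTTTGTT, 2 forms of the site bound by the TCF and LEF partners of beta-catenin (8.06%). Other forms of that site were not searched. The marked matches do not overlap each other. A match is a description of the letters, and no binding was measured.

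BMP signalling lies upstream of Msx genes and several Dlx genes in the tooth. Of 23 genes of the list, 7 were called higher and none lower, beside 1.08% and 0.0558% of all tested genes. Their median log2 difference was 1.14, beside −0.03 over all tested genes. The count of 7 became 3 without cHet8 (0.698% of all tested genes), 9 without cKO9 (3.67%) and 0 without any 1 of the other 6 libraries (0% to 0.0357%). Without both cHet11 and cKO9 it was 8 (2.84%), while DESeq2 called 13 (7.95%) and voom 12 (5.96%). With the mesenchyme score as covariate 1 was called (0.0511%) and with the olfactory score 0 (0%). With the mesenchyme scaling the median was −0.09, which is 1.26 above that of all genes, and none was called. The list was chosen with earlier results of these data known, so its count is a description. Among ligands and antagonists, Bmp2 rose from 70.4 ± 38.3 to 772 ± 234 CPM (log2 3.45, SE 0.48, adjusted p = 0.0328), Bmp6 from 47.9 ± 6.29 to 132 ± 34.0 CPM (adjusted p = 0.0336), and the antagonist Nog from 2.56 to 15.9 CPM (adjusted p = 0.0283). Bmp4, the ligand best known for inducing Msx1 in tooth mesenchyme, stood at 18.5 ± 10.2 and 19.1 ± 8.51 CPM (log2 0.04, SE 0.51, adjusted p = 0.979). The type I receptor gene Acvr1 rose from 18.8 to 41.5 CPM (adjusted p = 0.0405).

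Downstream, Smad6, which encodes an inhibitory Smad, rose from 26.8 ± 9.96 to 116 ± 28.1 CPM (log2 2.11, SE 0.30, adjusted p = 0.0337), Smad9 from 1.16 to 7.58 CPM and the target gene Id2 from 145 to 499 CPM. The related target genes Id1 (53.1 and 156 CPM, adjusted p = 0.0526) and Id3 (154 and 572 CPM, adjusted p = 0.0579) did not pass, with no overlap between their groups. Id4 stood at 690 and 665 CPM. The general mesenchyme sum was higher beside these genes as well, and its part was not tested.

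Other transcription factors of tooth mesenchyme stood beside the Dlx and Msx genes. Of 14 on the list, 13 were tested and 1 was called higher, Prrx1, beside 1.08% of all tested genes. Prrx1 rose from 26.5 ± 11.2 to 91.9 ± 19.0 CPM (log2 1.80, SE 0.32, adjusted p = 0.0455) and is also among the mesenchyme markers. That call held without cHet8 (0.698% of all tested genes), 4 genes were called without cKO9 (3.67%), and none without any 1 of the other 6 libraries. In 8 of the 13 every cKO library lay above every cHet library, beside 6.46% of all tested genes, and the median log2 difference was 1.39. DESeq2 and voom each called 8 higher (7.95% and 5.96% of all tested genes), and edgeR 5 without both cHet11 and cKO9 (2.84%). It called none with RLE factors, with the mesenchyme scaling or with the mesenchyme or olfactory score. Osr2, which restricts tooth formation to a single row and opposes Msx1 there, stood at 40.2 ± 22.0 and 207 ± 76.5 CPM (adjusted p = 0.0561). Prrx2 stood at 33.4 and 150 CPM (adjusted p = 0.0658), and Lhx8, a LIM homeobox factor of molar mesenchyme, at 11.7 and 49.5 CPM (adjusted p = 0.0756).

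The endothelin pathway switches on Dlx5 and Dlx6 in the embryonic lower jaw. Of 13 genes, 10 were tested and none was called by edgeR in either direction, 3 having an unadjusted p under 0.05, all higher (10.8% of all tested genes). DESeq2 and voom each called 2 higher (7.95% and 5.96%). The median log2 difference was 0.41, and it was −0.29 with the mesenchyme score as covariate, a fit that called Mef2c lower. With the mesenchyme scaling it was −0.62, which is 0.73 above the median of all genes in that fit. The receptor gene Ednra stood at 32.7 ± 18.3 and 82.2 ± 30.3 CPM (log2 1.33, adjusted p = 0.201), and the G protein gene Gna11 at 47.5 and 85.2 CPM (adjusted p = 0.113). Gnaq, of the same class, stood at 34.9 and 50.4 CPM (adjusted p = 0.263). The ligand gene Edn1 had 0.471 and 0.577 CPM, and Hand1 and Hand2, targets of Dlx5 and Dlx6 in the arch, were under the filter.

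Mineralization genes, several of which Dlx3 and Dlx5 are known to drive, had differences of both signs. None of the 12 was called by edgeR, and 4 had an unadjusted p under 0.05 (2 higher and 2 lower, beside 10.8% and 6.33% of all tested genes). DESeq2 called 1 higher and 1 lower, and voom 1 higher, where 7.95% and 5.96% of all tested genes were called higher. The median log2 difference was 0.21, and it was −0.05 with the olfactory score and −0.52 with the mesenchyme score, a fit that called Smpd3 lower, as did the fit without both cHet11 and cKO9. With the mesenchyme scaling it was −1.02, which is 0.33 above the median of all genes in that fit. Sp7, the osteoblast and odontoblast factor osterix, stood at 58.6 ± 28.0 and 161 ± 69.1 CPM (log2 1.46, adjusted p = 0.177). Smpd3, a sphingomyelinase of mineralizing cells, had a log2 difference of −1.43 (173 and 64.1 CPM, adjusted p = 0.110), and the dentin gene Dspp of −1.23 (7.72 and 3.28 CPM, adjusted p = 0.257). Col1a1 stood at 2386 and 5558 CPM (adjusted p = 0.233).

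Proteins that bind Dlx or Msx factors were taken as a list of 4. Maged1, which encodes an adaptor for Dlx5 and Msx2, stood at 501 ± 99.2 and 1123 ± 294 CPM, with no overlap (log2 1.17, SE 0.23, adjusted p = 0.0573). Ndn, encoding necdin, which joins that complex, stood at 31.8 ± 12.3 and 97.8 ± 33.4 CPM (log2 1.62, SE 0.35, adjusted p = 0.0710), also with no overlap. Pias1 (124 and 138 CPM) and the linker histone gene Hist1h1b (0.435 and 0.202 CPM) did not pass. None of the 4 was called by edgeR, and 2 had an unadjusted p under 0.05, each higher in cKO (10.8% of all tested genes). DESeq2 and voom each called 2 higher (7.95% and 5.96%).

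Most homeobox genes related to the members were under the filter in these libraries. Of 40 other genes of the NKL class, to which Dlx and Msx belong, 10 passed the filter and 11 were listed at 0 in all libraries, among them Msx3. None was called by edgeR, 4 having an unadjusted p under 0.05 (2 higher and 2 lower, beside 10.8% and 6.33% of all tested genes). DESeq2 called 2 higher and 2 lower, and voom 2 higher, where 7.95% and 5.96% of all tested genes were called higher. The median log2 difference was −0.39. Dbx2 (0.516 and 3.24 CPM, adjusted p = 0.0745) and Barx1, a molar-type factor (60.5 ± 30.4 and 192 ± 68.1 CPM, adjusted p = 0.121), had the smallest p among those with higher values in cKO. Hhex (8.90 and 0.964 CPM) and Hlx (3.62 and 0.930 CPM) had lower means in cKO, with adjusted p of 0.215 and 0.221. Of 39 Hox cluster genes, none passed the filter and 22 were listed at 0. All of them together summed to between 0.118 and 1.19 CPM per library, against 155 to 1224 CPM for the 8 Dlx and Msx genes.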

How the data were processed

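Bulk RNA was sequenced from 4 cHet and 4 cKO libraries of sorted cells, made with a SMART-Seq v4 kit (full-length cDNA, no strand marking and no molecular identifiers), per the labels' protocols. The values are whole-number counts per gene, as the authors deposited them, without normalization. The tools Trim Galore and STAR and the builds GRCm39 and mm39 are named in the submitters' processing notes, without versions; a counting tool and an annotation are not named there. No genome of that build was used, so sequences and lengths come from GRCm38 and none of the files' coordinates was used.

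Of 56748 identifiers, 52073 matched a symbol without their version suffix. The identifier with the largest total stood for a symbol. Total counts lay between 44444033 and 50051392 per library.

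The comparison of groups used edgeR 4.0.16 under R 4.3.3 (TMM factors, default filter by group, which kept 21508 genes, quasi-likelihood F test, two-sided, genotype as the only term), with Benjamini-Hochberg adjustment over all tested genes and a threshold of 0.05. Standard errors were taken as the size of the log2 change over the root of its F value, and intervals are 1.96 standard errors on either side, both approximate. Such intervals are too narrow for 4 libraries per group. The common biological coefficient of variation was 0.553. Marker scores are means of log2 CPM (prior count 2), compared by an exact permutation test over 70 assignments. The procedure was tested on simulated counts. Alternatives were DESeq2 1.42.0, limma 3.58.1 voom with quality weights, other scalings and filters, summed identifiers, robust dispersions, marker scores as covariates and leaving out each library. The fit without both cHet11 and cKO9 was added after seeing the data.

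Named genes were the 8 members, matched opposite-strand transcripts, Ctnnb1, Cxcl12, called members of each list with up to 4 of smallest p, and the 3 genes (10 for the mean of the members) of highest Pearson correlation. Bmp4, Id1, Id3, Id4, Dspp, Col1a1, Pdk2, Edn1, Mef2c, Hand1, Hand2, Msx3 and the example markers are named outside this rule, after their values were seen. The members and lists were chosen with earlier results of these data known. No sequence was printed for promoters inside a transcript, and the homeobox stretch of Msx1 is not reported here.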

Additional observations from a re-analysis of the deposited data

Results flagged for a closer look

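Msx2 in cKO9 stood at 55.5 CPM, far below the other 3 cKO libraries, which lay within 126 to 133 CPM. The gap took up 0.916 of the range of the group, above Dixon's 95% critical value for 4 samples. It was the only value so marked in 24 groups (12 genes in each of 2 genotypes, the 8 members and 4 opposite-strand transcripts), and chance marks about 1 in 20. The general mesenchyme sum of cKO9 was also the lowest of its group, at 13894 CPM, and its part was not tested.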

How the results depend on the processing

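No paired analysis was possible because the columns carry none of the labels' replicate numbers. The counts of called genes, 232 higher and 12 lower, with 2 members higher and none lower, stayed within 1.5 times of these values with RLE factors, library size alone and summed identifiers. DESeq2 gave 1709 higher and 871 lower with 8 members, and voom 1281 and 271 with 7 members. Scaling to mesenchyme genes gave 2 and 1 with 0 members, and turned Dlx5 (−0.14) and Dlx6 (−0.38) below 0. It moved the median of all genes to −1.35. Against that median Dlx5 and Dlx6 stood at 1.21 and 0.96, beside 1.13 and 0.91 with TMM factors. With the mesenchyme score as covariate there were 11 higher and 4 lower, with the olfactory score 0 and 0 (970 and 428 at an unadjusted p under 0.05), and with the ameloblast score 15 and 0, each with 0 members. Robust dispersions gave 7 lower, no filter 5 lower, and a filter of 1 CPM in 4 libraries 4 members. Without both cHet11 and cKO9 there were 609 and 32, with 7 members. Leaving out 1 library gave 0 to 816 higher, 0 to 144 lower and 0 to 5 members higher. The number of members called was 2 without cHet8, 5 without cKO9 (Dlx3 and Dlx4 among them) and 0 without any 1 of the other 6. The cause was not tested. In each of these edgeR fits at least 7 members were higher in cKO at an unadjusted p under 0.05. Over all tested genes the fewest at that level were 1736 of 22388, without cKO15. The most were 2763 of 22213, without cKO9. Each member had at least 298 counts in every library. The columns' animals are unknown, and counts without molecular identifiers include amplification error.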
